A study of Mus musculus with 15 samples.

Results

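Enteroendocrine cells are the scattered hormone-secreting cells of the gut epithelium, and 7 of their genes were followed across all libraries of the large intestine. They are the hormone genes Pyy, Sct, Gcg, Insl5 and Cck and the granule protein genes Chga and Chgb, taken by their Ensembl gene identifiers, and all 7 were among the 11525 genes tested. RNA came from male C57Bl/6 mice aged 4 weeks, sequenced as 15 libraries that form 5 groups of 3. Cymopol, a brominated phenol of the green alga Cymopolia, was given at 1.4 mmol/kg (cymopol high; libraries 11, 12 and 14) or 0.3 mmol/kg (cymopol low; libraries 33, 34 and 35). The non-polar extract of an alga was dosed at 1.0 g/kg (extract high; libraries 21, 23 and 25) or 0.3 g/kg (extract low; libraries 26, 27 and 29). Vehicle mice had the solvent alone, Cremophor EL with 10% DMSO (libraries 2, 4 and 5). All groups had 3 gavages at intervals of 24 h, and the gut was collected 12 h after the final dose. Whether libraries of 1 group are separate mice is not stated in the labels, so the p-values measure the spread between these libraries, which may be technical. No allele or transgene is named for any group.

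L cells, which lie mainly in the distal gut, make peptide YY, the product of Pyy, and the glucagon-like peptides cut from the product of Gcg. Colonic L cells also make insulin-like peptide 5, the product of Insl5. Secretin (Sct) and cholecystokinin (Cck) are best known as hormones of the upper small intestine, where they drive pancreatic bicarbonate and enzyme secretion, and Sct is also read in colonic enteroendocrine cells. Chromogranin A and chromogranin B (Chga and Chgb) are acidic proteins that pack the dense-core granules in which these hormones are stored, and they serve as general markers of endocrine cells. Enteric neurons and the endocrine pancreas also express chromogranins.

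The members lie on 6 chromosomes and none overlaps another annotated gene in GENCODE M21, so reads of unknown strand are not shared with an annotated neighbour. Promoters, here the 250 bases before to 50 bases after a gene's start, were found in RefSeq (GRCm38.p6) for all 7. Shown are those of the pair of hormones whose levels ranged most between libraries and of both granule proteins, which were read in every library. Capitals mark matches, on either strand, to an E-box (CANNTG, the kind of site read by basic helix-loop-helix factors), a cAMP response element (TGACGTCA) or a TATA box (TATAAA).
Pyy promoter, chr11:102107783-102108082, minus strand: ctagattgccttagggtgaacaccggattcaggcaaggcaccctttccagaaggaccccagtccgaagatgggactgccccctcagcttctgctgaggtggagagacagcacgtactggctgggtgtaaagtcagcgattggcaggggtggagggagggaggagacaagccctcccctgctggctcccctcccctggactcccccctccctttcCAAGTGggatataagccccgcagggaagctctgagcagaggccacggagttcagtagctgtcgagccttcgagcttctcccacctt
Insl5 promoter, chr4:103026679-103026978, minus strand: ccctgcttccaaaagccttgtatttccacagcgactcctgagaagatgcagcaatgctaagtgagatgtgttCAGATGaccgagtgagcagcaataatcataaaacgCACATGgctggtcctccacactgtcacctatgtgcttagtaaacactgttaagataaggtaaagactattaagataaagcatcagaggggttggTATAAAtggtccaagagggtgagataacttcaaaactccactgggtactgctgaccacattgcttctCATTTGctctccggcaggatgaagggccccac
Chga promoter, chr12:102554691-102554990, plus strand: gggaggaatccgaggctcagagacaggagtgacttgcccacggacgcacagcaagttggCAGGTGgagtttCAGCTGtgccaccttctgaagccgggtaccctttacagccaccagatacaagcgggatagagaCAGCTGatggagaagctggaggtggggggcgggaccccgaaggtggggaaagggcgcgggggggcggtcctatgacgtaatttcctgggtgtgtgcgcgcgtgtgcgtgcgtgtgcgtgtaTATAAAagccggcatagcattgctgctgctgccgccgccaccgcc
Chgb promoter, chr2:132781392-132781691, plus strand: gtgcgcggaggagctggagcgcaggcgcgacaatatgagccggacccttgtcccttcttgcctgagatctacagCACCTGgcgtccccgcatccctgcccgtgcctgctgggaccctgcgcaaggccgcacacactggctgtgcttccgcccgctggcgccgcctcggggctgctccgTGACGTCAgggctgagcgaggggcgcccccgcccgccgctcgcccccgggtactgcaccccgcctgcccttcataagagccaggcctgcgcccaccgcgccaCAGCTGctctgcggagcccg
Over the 32851 promoters of this length in the table, 72.3% held the E-box letters, 1.79% the cAMP response element and 13.6% the TATA box. The cAMP response element was matched in Chgb alone among the 7 members. The TATA box was matched in Sct, Gcg, Insl5 and Chga, and Gcg had 2 matches. E-box letters were matched in all 7, with 1 match in Pyy and 2 in Chgb. These are matches of letters and were not tied to any reading of factor binding.

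The levels are FPKM, fragment abundance per unit of transcript length and library depth. The files hold no counts, and the fragments behind a value were estimated from the width of its interval. Sums over marker lists are given as FPM, estimated fragments per 1000000 fragments in protein-coding genes. Protein-coding genes held an estimated 174517 to 552912 fragments in the high dose libraries of both agents, 31770 to 182550 in cymopol low, 27985 to 105900 in extract low and 25086 to 227141 in the vehicle. Precision is therefore poor for hormones, and the estimates and the FPKM values carry counting error beside any difference between samples. An exact 0 can be a failed estimate as well as absence, since Ppia, a gene used by every cell, was listed at 0 in vehicle libraries 2 and 5 and in extract low library 26. Levels at 0 are therefore given as listed for each library, and the differences between groups take these zeros as values. Of the 105 values of the members, 29 came from loci that the authors' assembly had built in 1 library and that were matched here to the gene by position. All 10 Sct values and all 7 Gcg values above 0 were of this kind. So were 6 of the 8 Pyy values above 0, among them all those of extract high. The values at 0 of Pyy, Sct and Gcg came from annotated rows, except Gcg in cymopol low library 34. For Sct and Gcg, and in part for Pyy, the kind of row thus differs between values above 0 and at 0. Its part was not tested.

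Vehicle library 2 stood apart by its make-up, with 8.46% of its estimated fragments in genes, against 32.8 to 71.4% in the other libraries. Its FPKM values ran low, with Actb at 14.9 FPKM against 71.1 to 605 FPKM elsewhere. A few libraries stood apart by gut segment. Cymopol high library 14 held 413 FPKM of Fabp6, the ileal bile acid binding protein, against at most 0.973 FPKM in the 14 others, and its small intestine marker list summed to 19100 FPM, against at most 1370 elsewhere. Hoxb13, a gene of the most distal hindgut, was at 41.2 FPKM in cymopol high library 12, 23.8 in cymopol low library 34 and 49.98 in extract high library 23, and at most 3.95 FPKM in the other 12. Car1, an enzyme of colonic surface epithelium, was read in every library, from 40.5 to 1889 FPKM, which marks the labelled tissue. The epithelial list summed to 10000 to 24700 FPM in cymopol high, 13000 to 26200 in cymopol low, 13400 to 19800 in extract high, 16900 to 20600 in extract low and 4910 to 16500 in the vehicle. B cell markers summed to 6100 FPM in vehicle library 4, against at most 544 in any other library.

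None of the 7 members passed the test against the vehicle at either dose of either agent. The test was limma on log2(FPKM + 1) with Benjamini-Hochberg adjustment over all genes tested, and a gene was called at an adjusted p under 0.05. In cymopol high against the vehicle 0.0174% of all genes were called, in extract high 0.00868%, and in both low doses 0.0%, so hardly any gene passed. At an unadjusted p under 0.05, 2 of 7 members (Pyy and Sct) were higher in cymopol high and 3 of 7 (Pyy, Sct and Gcg) in extract high, where 12.5% and 10.6% of all genes were. At the low doses no member had an unadjusted p under 0.05. The smallest adjusted p of a member was 0.179 in cymopol high, 0.933 in cymopol low, 0.307 in extract high and 1.0 in extract low.

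The median log2 difference of the members from the vehicle was 1.25 in cymopol high and 1.36 in extract high, beside 0.81 and 0.71 over all genes tested. In cymopol low it was 0.9, beside 0.23 over all genes, and in extract low 0.25, beside -0.14. The typical gene was thus itself higher in both high dose groups on this scale. In cymopol high and extract high, goblet cells had larger medians than the members, 2.17 and 2.26, as did the intestinal epithelium, 2.04 and 1.58. The large intestine list had smaller ones, 1.06 and 1.24, and the small intestine list had 1.58 and 0.51. Smooth muscle, which is not epithelial, had 1.31 and 0.95. Again no gene of these lists was called. All 4 comparisons share the same 3 vehicle libraries.

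**Figure D1:**
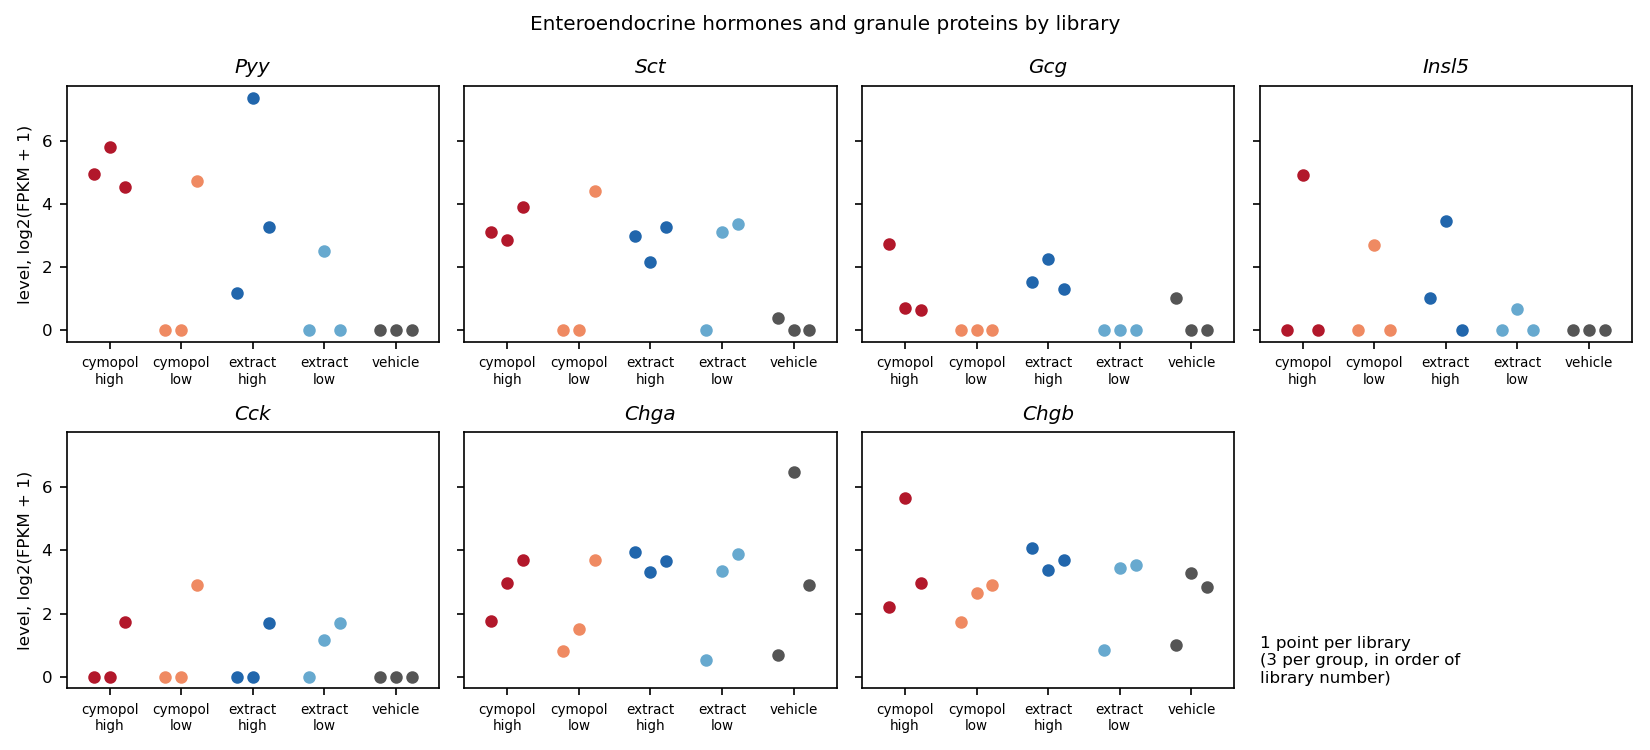
Level of each gene, as log2(FPKM + 1), in each of the 15 libraries by group (1 point per library, 3 per group). Pyy is listed at 0 in all 3 vehicle libraries and above 0 in all 6 high dose libraries, whereas Chga and Chgb are above 0 in all 15.

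Pyy, whose peptide slows gut transit and curbs appetite, had the smallest p of the members in cymopol high. It was at 30.2, 55.0 and 22.5 FPKM in cymopol high libraries 11, 12 and 14, and was listed at 0 in all 3 vehicle libraries. The groups did not overlap. The difference on the log2(FPKM + 1) scale was 5.11 with an SE of 1.30 and a limma adjusted p of 0.179, which misses the threshold. In extract high it was at 1.24, 165 and 8.63 FPKM in libraries 21, 23 and 25, all above the vehicle, with a difference of 3.93 (SE 1.30; limma adjusted p = 0.307). One library carried most of that level, and without it the difference was 2.22.

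At the low doses Pyy was listed above 0 in 1 library of each agent. Cymopol low library 35 had 25.8 FPKM and extract low library 27 had 4.66 FPKM, and the other 2 of each group were listed at 0, as was the vehicle. These groups overlapped the vehicle. The fragments behind the Pyy values were few, an estimated 12.7, 27.8 and 10.8 in cymopol high and 0.0928, 92.2 and 3.73 in extract high, and 5.65 in cymopol low library 35. The 1.24 FPKM of extract high library 21 thus rests on less than 1 estimated fragment. In FPM, Pyy stood at 44.2, 81.4 and 35.8 in cymopol high, while 3 fragments, taken as the floor of reading, are worth 58.6 FPM in vehicle library 2, 13.2 in library 4 and 120 in library 5. All 3 cymopol high levels exceed the floor of vehicle library 4, 1 of them exceeds that of library 2 and none that of library 5, so a like level was not detectable in library 5.

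Between doses, Pyy was higher in cymopol high than in cymopol low by 3.53 on the log2(FPKM + 1) scale (SE 1.30; unadjusted p = 0.0102, limma adjusted p = 0.807). Extract high exceeded extract low by 3.10 (SE 1.30; unadjusted p = 0.0225, limma adjusted p = 0.638), and by 1.38 without extract high library 23. In both pairs the libraries overlapped, and neither difference passed. The other member with an unadjusted p under 0.05 between doses was Gcg, for both agents.

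Sct, which encodes secretin, had 7.71, 6.21 and 13.8 FPKM in cymopol high, and in the vehicle 0.321 FPKM in library 2 and 0 listed in libraries 4 and 5. In extract high it had 6.91, 3.48 and 8.72 FPKM. Both high dose groups lay wholly above the vehicle, in FPKM and in FPM. In FPM, cymopol high had 36.2, 16.3 and 54.4 and extract high 32.8, 7.65 and 43.9. All lie under the floors of vehicle libraries 2 and 5, 58.6 and 120 FPM, so a like level was not detectable there. The 7.65 FPM of extract high library 23 is also under the floor of vehicle library 4, 13.2 FPM. Vehicle library 2 had 6.74 FPM, from an estimated 0.345 fragments. The log2 difference was 3.15 (SE 1.13; limma adjusted p = 0.288) for cymopol high and 2.68 (SE 1.13; limma adjusted p = 0.381) for extract high. In extract low Sct was listed at 0 in library 26 and had 7.66 and 9.37 FPKM in libraries 27 and 29, with a difference from the vehicle of 2.03 (SE 1.13; limma adjusted p = 1.0). In cymopol low it was listed at 0 in libraries 33 and 34 and had 20.4 FPKM in library 35, the highest Sct value of the 15. The libraries at 0 in the low dose groups were among the shallowest, and depth and group cannot be told apart here.

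Gcg, which encodes proglucagon, was low wherever it was read. It had 5.71, 0.615 and 0.543 FPKM in cymopol high, 1.90, 3.77 and 1.48 FPKM in extract high, and 1.05 FPKM in vehicle library 2, and it was listed at 0 in the other vehicle libraries and in all 6 low dose libraries. In FPKM, extract high lay above the vehicle and above extract low in every library, and cymopol high lay above cymopol low in every library but overlapped the vehicle. In FPM, Gcg stood at 9.42 and 11.8 in extract high libraries 21 and 25 and at 14.7 in vehicle library 2, so these groups overlapped. The log2 difference from the vehicle was 1.36 (SE 0.65; limma adjusted p = 0.420) for extract high and 1.01 (SE 0.65; limma adjusted p = 0.489) for cymopol high, and the cymopol high value was 0.31 without library 11. High minus low dose gave 1.70 (SE 0.65; limma adjusted p = 0.638) with the extract and 1.35 (SE 0.65; limma adjusted p = 0.833) with cymopol, and the cymopol value was 0.66 without library 11. Estimated fragments reached 14.2 in cymopol high library 11 and 9.96 in extract high library 23, while the values of cymopol high libraries 12 and 14 and of vehicle library 2 each rest on less than 1.

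The share of all genes whose groups did not overlap in FPKM, with the first group higher, puts these separations in place. It was 19.5% for cymopol high against the vehicle, where 2 of 7 members (Pyy and Sct) did so, and 19.3% for extract high against the vehicle, where 4 of 7 (Pyy, Sct, Gcg and Chgb) did so. For high against low dose the share was 9.8% with cymopol and 20.9% with the extract, with 1 of 7 members, Gcg, in each. In FPM, 2 of 7 members (Pyy and Sct) lay above the vehicle without overlap in both high dose groups, beside 19.0% of all genes in cymopol high and 21.0% in extract high. The 4 of 7 in extract high thus holds in FPKM only, and the other counts are near their background. No member was lower than the vehicle, or lower at the high than at the low dose, without overlap.

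Insl5, whose peptide is made by L cells of the colon and rectum, was read strongly in a few libraries and not by group. It had 29.3 FPKM in cymopol high library 12 and was listed at 0 in libraries 11 and 14. In extract high it had 1.05 and 9.90 FPKM in libraries 21 and 23 and was listed at 0 in library 25. Cymopol low had 5.51 FPKM in library 34 only, extract low 0.595 FPKM in library 27 only, and all 3 vehicle libraries were listed at 0. Every treated group overlapped the vehicle. The log2 difference from the vehicle was 1.64 (SE 0.98; limma adjusted p = 0.457) in cymopol high and 1.49 (SE 0.98; limma adjusted p = 0.541) in extract high, and without library 12 the cymopol high group was listed at 0 throughout.

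The 3 libraries with the most Insl5 were the same 3 with Hoxb13 above 20 FPKM. Insl5 stood at an estimated 53.6 fragments in cymopol high library 12, 31.8 in extract high library 23 and 1.12 in cymopol low library 34, and at less than 1 in each of the 12 others. Hoxd13, another distal hindgut gene, was at 10.6, 4.29 and 3.60 FPKM in those 3 libraries and at most 0.129 FPKM elsewhere. Pyy was also highest in the first 2 of these, at 55.0 and 165 FPKM, but was listed at 0 in cymopol low library 34. No vehicle library had more than 0.803 FPKM of Hoxb13. The part of gut segment in the hormone levels was not tested.

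**Figure D2:**
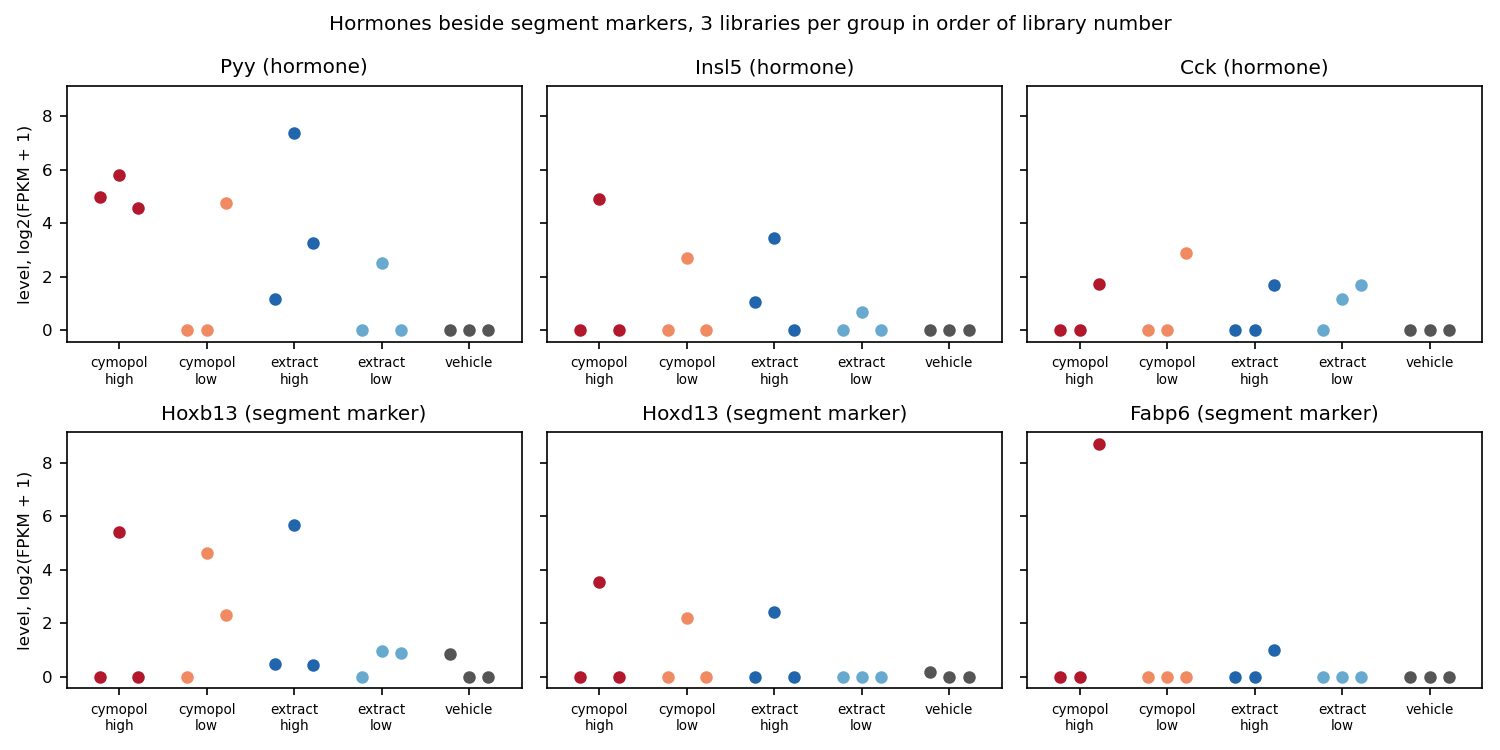
Levels, as log2(FPKM + 1), of 3 hormones (upper row) and 3 segment markers (lower row) in the 15 libraries by group. The libraries high in Insl5 are those high in Hoxb13 and Hoxd13, and Fabp6 is high in cymopol high library 14 alone.

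With the 4 libraries above 20 FPKM of Hoxb13 or Fabp6 left out, cymopol high keeps library 11 alone and extract high keeps libraries 21 and 25. Pyy then differed from the vehicle by 4.97 in cymopol high, about as much as with all libraries, and by 2.22 in extract high. Sct differed by 2.99 in cymopol high and by 3.00 in extract high. Gcg differed by 2.401 in cymopol high (unadjusted p = 0.00511, limma adjusted p = 0.517), which is the value of library 11 against the vehicle, and by 1.08 in extract high. Insl5 differed by 0.52 in extract high, and in cymopol high it was listed at 0. The limma adjusted p was at least 0.743 for the values of Pyy and Sct, and the lone library was taken to vary like those of the other groups. This choice was made after seeing the marker levels.

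Cck, the cholecystokinin gene, was at the edge of reading. It had 2.31 FPKM in cymopol high library 14, 6.46 in cymopol low library 35, 2.26 in extract high library 25, and 1.23 and 2.25 in extract low libraries 27 and 29. It was listed at 0 in the 10 others, the vehicle included. The 5 values rest on an estimated 1 to 5 fragments each. The log2 difference from the vehicle was 0.58 (SE 0.72; limma adjusted p = 0.725) in cymopol high and 0.57 (SE 0.72; limma adjusted p = 0.768) in extract high. The small intestine markers of cymopol high library 14 stood beside a Cck level lower than that of cymopol low library 35.

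Taking the 5 hormones in each library, 40 of the 75 values were listed at 0. They were 4 of 15 in cymopol high, 11 of 15 in cymopol low, 3 of 15 in extract high, 9 of 15 in extract low and 13 of 15 in the vehicle. All 5 hormones were listed at 0 in 4 libraries, which are cymopol low library 33, extract low library 26 and vehicle libraries 4 and 5. Vehicle library 4 was not shallow, with 227141 estimated fragments in protein-coding genes, but its epithelial markers were the lowest of all libraries at 4910 FPM. The hormones held an estimated 7.09, 25.5 and 4.08 fragments per 1000 fragments of the epithelial list in cymopol high, 0, 0.723 and 7.28 in cymopol low, 2.26, 18.7 and 4.61 in extract high, 0, 2.85 and 3.05 in extract low, and 2.75, 0 and 0 in the vehicle. The 2.75 of vehicle library 2 rests on an estimated 1.1 hormone fragments. On the same measure Chga and Chgb together held 10.6 to 24.2 in cymopol high and 9.64 to 21.7 in cymopol low. Both lay wholly below the vehicle, at 31.5 to 65.0, whereas both extract groups overlapped the vehicle. The epithelial list under this ratio was at 4910 to 16500 FPM in the vehicle. It was at 10000 to 24700 in cymopol high and 13000 to 26200 in cymopol low, and its part in the ratio was not tested. In FPM, Chga and Chgb each overlapped the vehicle in both cymopol groups. How many of all genes lay below the vehicle on this ratio was not counted. In bulk tissue, a difference in the number of enteroendocrine cells and one in hormone RNA per cell cannot be told apart. Neither was tested here, and depth, kind of row and epithelial content also varied between the libraries.

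Chga, the chromogranin A gene, was above 0 in all 15 libraries, and its groups overlapped. It had 2.37, 6.87 and 11.9 FPKM in cymopol high, 0.761, 1.86 and 12.0 in cymopol low, 14.3, 8.92 and 11.6 in extract high, 0.445, 9.10 and 13.9 in extract low, and 0.605, 88.2 and 6.47 in the vehicle. The highest value came from vehicle library 4, where Chga was read from an assembled locus. The log2 difference from the vehicle was -0.55 (SE 1.27; limma adjusted p = 0.854) in cymopol high and 0.28 (SE 1.27; limma adjusted p = 0.945) in extract high. Without vehicle library 4 the cymopol high difference was 1.01, so its sign rests on that library.

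Chgb, the chromogranin B gene, was likewise above 0 in all 15. It had 3.63, 50.2 and 6.83 FPKM in cymopol high, 2.33, 5.27 and 6.45 in cymopol low, 16.0, 9.52 and 12.1 in extract high, 0.808, 9.96 and 10.7 in extract low, and 0.991, 8.72 and 6.17 in the vehicle. In FPKM, extract high lay wholly above the vehicle and the other treated groups overlapped it. The log2 difference was 1.36 (SE 1.16; limma adjusted p = 0.646) in extract high and 1.25 (SE 1.16; limma adjusted p = 0.628) in cymopol high. It was 0.67 in extract high and 0.56 in cymopol high without vehicle library 2, and 0.22 in cymopol high without library 12.

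The FPKM worth of 1 fragment was not constant. For annotated rows of Chgb it ran from 0.0385 FPKM per estimated fragment in extract low library 26 to 0.881 in vehicle library 5. Within a library the ratio of this worth, Chga over Chgb, was 1.15 to 1.65 in the 11 libraries with annotated rows of both genes. It was 11.2 in vehicle library 4, 0.19 in cymopol high library 12, 2.72 in extract high library 25 and 1.3 in extract high library 23. Vehicle library 4 and cymopol high library 12 hold the highest Chga and the highest Chgb value in FPKM, each from an assembled locus.

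Counted in FPM, the chromogranins took another order. Chga stood at 62.7, 102 and 243 in cymopol high, 62.8, 50.8 and 217 in cymopol low, 364, 129 and 227 in extract high, 250, 342 and 389 in extract low, and 156, 133 and 239 in the vehicle. Chgb stood at 131, 141 and 193 in cymopol high, 220, 202 and 147 in cymopol low, 606, 180 and 643 in extract high, 750, 550 and 361 in extract low, and 351, 147 and 279 in the vehicle. On this scale both genes were higher in extract low than in the vehicle without overlap, which 3.39% of all genes were, and Chgb in extract high overlapped the vehicle. Neither difference of extract low from the vehicle passed the limma test on log2(FPM + 10). The difference was 0.88 (SE 0.79; limma adjusted p = 0.812) for Chga and 1.09 (SE 0.71; limma adjusted p = 0.734) for Chgb.

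**Figure D3:**
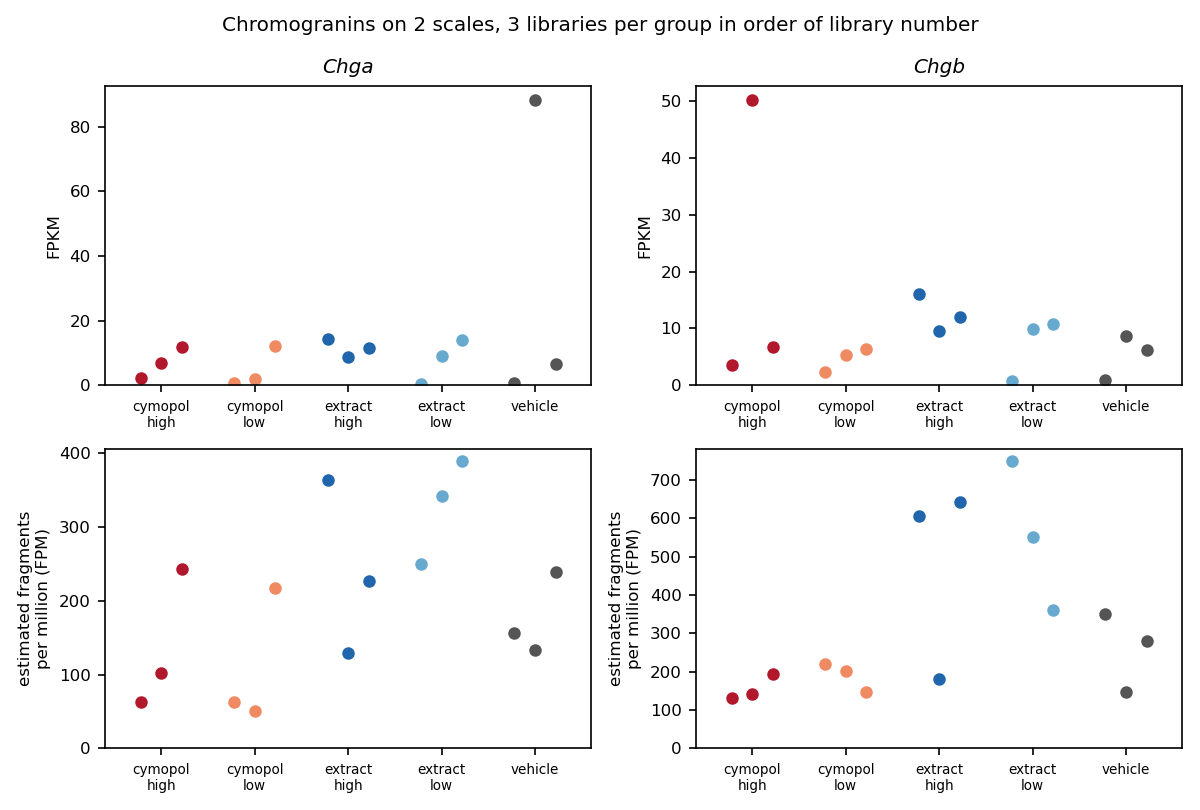
Chga and Chgb in the 15 libraries by group, in FPKM (upper row) and in FPM (lower row). The high FPKM of Chga in vehicle library 4 (88.2) and of Chgb in cymopol high library 12 (50.2) have no counterpart in fragments, at 133 and 141 FPM.

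The hormones kept their direction on both other scales tried. For Pyy, Insl5 and Cck, listed at 0 in all vehicle libraries, no scaling could turn the difference from the vehicle negative. Their kept direction is therefore not a test. The FPKM fits took log2(FPKM + 1) and the FPM fit log2(FPM + 10), so sizes on these scales also differ by the value added. For Pyy in cymopol high the log2 difference from the vehicle was 4.29 after median-of-ratios scaling of the FPKM and 2.61 in FPM, and in extract high 3.38 and 1.82. For Sct it was 2.02 and 1.85 in cymopol high, and 1.75 and 1.54 in extract high. For Gcg it was 0.03 and 0.50 in cymopol high, and 0.26 and 0.75 in extract high. The median of all genes was 0.81 in FPKM, 0.25 after median-of-ratios scaling and 0.50 in FPM for cymopol high, and 0.71, 0.25 and 0.52 for extract high. Chgb in cymopol high and Chga in extract high changed sign between the scales.

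**Figure D4:**
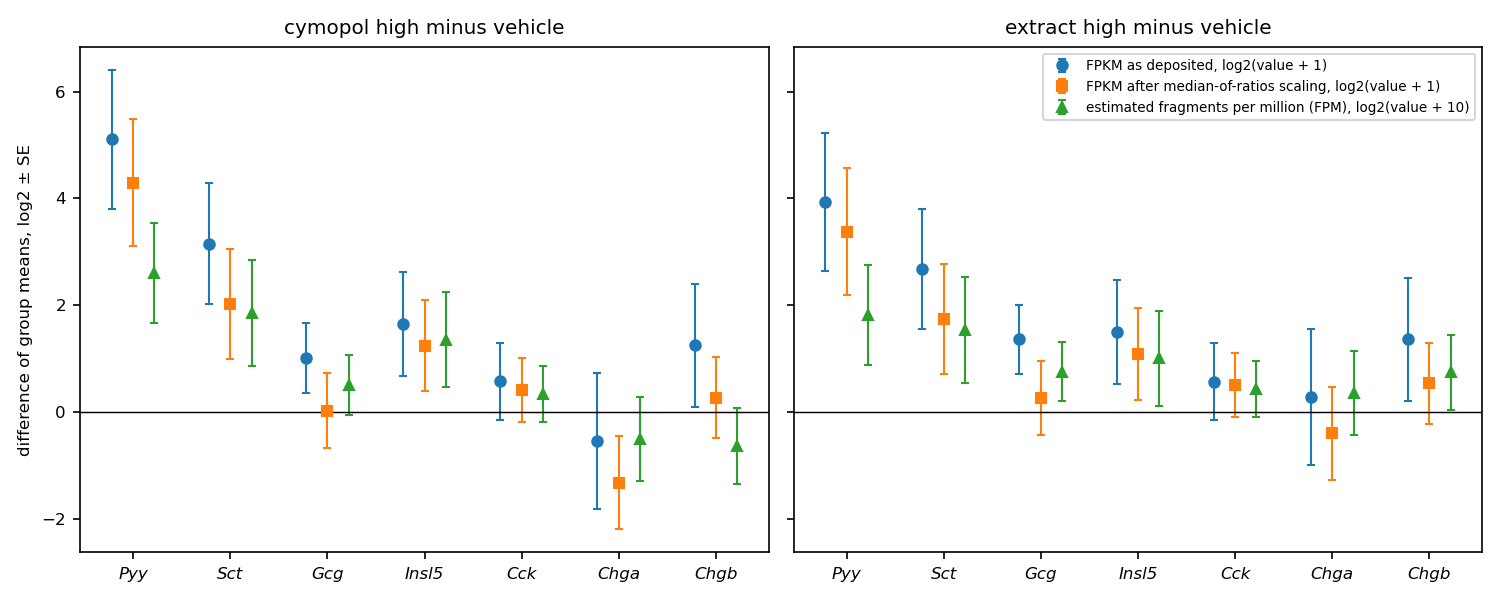
Difference of group means from the vehicle, log2 with its SE, for cymopol high (left) and extract high (right) on 3 scales. The value added before the log was 1 for FPKM and 10 for FPM. Pyy and Sct lie above 0 on all 3 scales in both panels, and the chromogranins lie on either side of 0. With Pyy listed at 0 in the vehicle, its difference could not fall below 0.

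Between the agents at their high doses, whose units differ (mmol/kg and g/kg) so that the doses are not matched, no member had an unadjusted p under 0.05. The call rate over all genes was 0.0174%. For Pyy cymopol high minus extract high was 1.17 on the log2(FPKM + 1) scale, with a 95% interval from -1.46 to 3.81 (limma adjusted p = 1.0). For Chga it was -0.83, from -3.41 to 1.75. These intervals are wide and do not show that the agents act alike. Between the doses of each agent 0.00868% of all genes were called, and no member.

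Other genes of enteroendocrine cells were read from 5 lists, and none of the genes tested in them was called in any of the 7 comparisons. Many list members could not be tested, since 7 of 18 other hormones and peptides, 12 of 18 granule and processing proteins, 4 of 18 transcription factors, 5 of 16 nutrient and bile acid receptors and 3 of 12 hormone receptors passed the filter on level. At an unadjusted limma p under 0.05, 1 of the 7 other hormones, 2 of the 12 granule and processing proteins, 1 of the 4 transcription factors, 2 of the 5 nutrient receptors and 0 of the 3 hormone receptors were higher in cymopol high than in the vehicle. For extract high these numbers were 2, 1, 0, 2 and 0, and none was lower in either comparison. Over all genes tested, 12.5% were higher at this p in cymopol high and 10.6% in extract high. The median log2 difference from the vehicle of the other hormones was 1.07 in cymopol high and 0.91 in extract high. For granule and processing proteins it was 1.29 and 1.11, for transcription factors 1.35 and 1.02, for nutrient receptors 1.76 and 1.26, and for hormone receptors 0.50 and 1.14, each beside 0.81 and 0.71 over all genes.

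Guca2b, which encodes uroguanylin, a peptide that drives salt and water secretion, had 7.30, 4.41 and 116 FPKM in cymopol high, and was listed at 0 in all 3 vehicle libraries. The library at 116 FPKM is library 14, which holds the small intestine markers. Extract high had 3.34, 3.50 and 11.7 FPKM. The log2 difference was 4.12 (SE 1.16; limma adjusted p = 0.182) in cymopol high and 2.65 (SE 1.16; limma adjusted p = 0.388) in extract high. Sst, the somatostatin gene of D cells and of enteric neurons, had 12.1, 7.83 and 14.3 FPKM in cymopol high, 11.7, 3.75 and 17.1 in extract high, and 0, 0 and 29.1 in the vehicle, so its groups overlapped. Tph1, the enzyme of serotonin synthesis in enterochromaffin cells, had 1.70, 5.28 and 3.37 FPKM in cymopol high, 0.401, 4.69 and 2.26 in extract high, and 6.22, 0 and 2.66 in the vehicle.

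Among granule and processing genes, Cpe, the carboxypeptidase that trims prohormones, had 18.4, 25.5 and 8.41 FPKM in cymopol high, 8.08, 15.9 and 11.3 in extract high, and 1.52, 25.2 and 1.70 in the vehicle. Its difference from the vehicle was 1.59 (SE 1.27; limma adjusted p = 0.576) in cymopol high. Resp18, a protein of endocrine granules, had 10.5, 1.66 and 2.50 FPKM in cymopol high and 3.73, 2.98 and 3.77 in extract high, and was listed at 0 in all vehicle libraries, with differences of 2.25 and 2.16 (SE 0.99 each; limma adjusted p = 0.341 and 0.407). Foxa1, a transcription factor used in secretory cell differentiation, had 4.51, 4.32 and 3.96 FPKM in cymopol high, 4.76, 10.3 and 8.05 in extract high, and 0.261, 5.88 and 0 in the vehicle. Ffar4, a receptor of long-chain fatty acids on L cells and others, had 1.56, 7.71 and 0.742 FPKM in cymopol high, 9.93, 7.86 and 0.283 in extract high, and was listed at 0 in the vehicle. Dpp4, the peptidase that trims peptide YY and inactivates glucagon-like peptide, had 0.636, 3.77 and 20.1 FPKM in cymopol high, the last in library 14. It had 1.84, 7.41 and 0.677 in extract high, and 0, 0.566 and 0 in the vehicle. Some of these values rest on few estimated fragments. Dpp4 had 0.0642 in cymopol high library 11 and 0.253 and 0.102 in extract high libraries 21 and 25. Resp18 had 0.569 and 1.19 in cymopol high libraries 12 and 14, and Ffar4 had 1.0 in extract high library 25.

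Other sources of these transcripts were read beside them. Ins1 and Ins2, the insulin genes of the endocrine pancreas, were listed at 0 in all 15 libraries, and the pancreas list summed to at most 177 FPM. Of the 16 genes of the enteric neuron and glia list, 11 were tested and none was called. At an unadjusted limma p under 0.05, 4 of these 11 were higher in cymopol high and 1 of 11 in extract high, beside 12.5% and 10.6% of all genes, and 4 of 11 lay above the vehicle without overlap in each, beside 19.5% and 19.3%. The median log2 difference of the 11 from the vehicle was 0.62 in cymopol high and 0.65 in extract high, below the 0.81 and 0.71 over all genes. Uchl1, a neuronal ubiquitin hydrolase, had 5.48, 8.59 and 4.59 FPKM in cymopol high and 8.87, 6.47 and 1.01 in extract high. It was listed at 0 in all 3 vehicle libraries, and its high dose values rest on an estimated 0.249 to 7.45 fragments. The list summed to 247 to 289 FPM in cymopol high, 53.7 to 183 in cymopol low, 155 to 242 in extract high, 27.2 to 426 in extract low and 41.5 to 272 in the vehicle. Goblet cell markers, of another secretory epithelial cell, summed to 6260 to 14000 in cymopol high, 7710 to 18600 in cymopol low, 7000 to 9220 in extract high, 3920 to 11700 in extract low and 1500 to 5220 in the vehicle. Smooth muscle markers overlapped, at 11500 to 19700 in cymopol high, 12300 to 18700 in extract high and 14100 to 18600 in the vehicle, and adipocyte markers overlapped as well, at 1630 to 3720 in cymopol high, 372 to 1780 in extract high and 947 to 3470 in the vehicle. The part of these cells, and of depth, in the hormone levels was not tested.

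The genes whose levels most resembled the mean log2 level of the 7 members over the 15 libraries were Rcn3, Mgat3, Zfand3, Plekhh1 and Cstf2t, with Pearson correlations of 0.948, 0.942, 0.942, 0.941 and 0.939. These are descriptions over 15 libraries that also share depth and the scaling of the FPKM.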

How the data were processed

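The authors deposited FPKM per library with a lower and an upper bound, in tables that per the file headers have the columns of a Cufflinks gene tracking file. Per the submitters' processing notes, the aligner was STAR 2.4.0j and the genome build GRCm38.p4. Per the labels' protocols, ribosomal RNA was removed from 90 ng of total RNA and a low-input kit was used. The settings of the quantifier are not given in the sources at hand.

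Annotated rows were taken by Ensembl identifier. A gene without a row in a library took the locus assembled there when the 2 spans shared at least 0.5 of their union and were mutual best matches. Symbols and positions are from GENCODE M21. Fragments were estimated as the square of 2 × FPKM over the distance to the upper bound, which is too low where the interval is wider than counting gives.

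Tested were 11525 genes, those valued in every library and reaching 1 FPKM in at least 3, as log2(FPKM + 1), with 1 mean per group in limma 3.58.1 (R 4.3.3, moderated variance with trend), in 7 comparisons, two-sided. Such differences understate the change of low genes. FPM, used as an alternative, were fitted as log2(FPM + 10). An exact test of 3 against 3 libraries cannot go below p = 0.1. Genes beside the members are up to 4 per list, those of the highest mean FPKM, of which some are described. Members and lists were chosen with earlier results of these data known. Replicate numbers are not shared between groups, so nothing was paired. Alternatives were another pseudocount, filter and scaling, annotated rows only, only the 2 groups compared, shallow libraries left out, each library left out, and 2 added after seeing the data, FPM (fragments per 1000000 in protein-coding genes) and leaving out libraries by segment markers.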

Additional observations from a re-analysis of the deposited data

Results flagged for a closer look

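Cymopol low library 34 held an assembled locus of 144 FPKM inside Chgb, on chromosome 2 from 132788936 to 132789165 (GRCm38), beside the annotated Chgb row of 5.27 FPKM. It is 230 bases long, rests on an estimated 13 fragments, and was not used for Chgb. No such additional locus stood within a member in any vehicle library.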

How the results depend on the processing

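No member was called in any of the 98 combinations of comparison and alternative, with all or some of the members tested. The smallest adjusted p of a member was 0.0768, for Pyy in cymopol high against the vehicle at a pseudocount of 0.1. With annotated rows only, 1104 genes were left and of the members only Insl5 and Cck had values. Of 251 alternative values for the 19 log2 differences reported, 241 kept their direction, 5 became 0 and 5 changed sign. The differences of Pyy, Insl5 and Cck from the vehicle, and of Gcg between doses, could not change sign. The group subtracted was listed at 0 throughout, so the number kept does not measure stability for them. The sign changes concern the chromogranins. Chgb in cymopol high against the vehicle was -0.64 in FPM and -0.16 without the libraries high in segment markers. Chga in extract high against the vehicle was -0.40 after median-of-ratios scaling. With each library left out in turn, Chga ranged from -1.88 to 1.01 in cymopol high and from -1.06 to 1.84 in extract high. Pyy then ranged from 4.76 to 5.39 in cymopol high and from 2.22 to 5.32 in extract high, and Sct from 2.85 to 3.37 and from 2.44 to 3.00. Gcg ranged from 0.31 to 1.37 and from 1.08 to 1.70, and Chgb from 0.22 to 1.95 and from 0.67 to 1.81. Between doses, Pyy ranged from 2.74 to 5.11 for cymopol and from 1.38 to 4.49 for the extract. Counts of all genes called were small and unstable. They ranged from 0 to 8 in cymopol high (main 2), 0 to 9 in cymopol low (main 0), 0 to 8 in extract high (main 1) and 0 to 8 in extract low (main 0) against the vehicle. Between doses they ranged from 0 to 4 for cymopol and 0 to 3 for the extract (main 1 each), and between agents from 0 to 9 (main 2). No paired analysis was possible because the groups share no replicate numbers. Many hormone values rest on fewer than 5 estimated fragments, so depth limits them.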
